A study of Mus musculus with 3 samples.

Results

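The complement components and receptors were followed in fetal liver RNA from mouse embryos at stage E14.5, in days of gestation. The list held 9 genes: C1qa, C1qb, C2, C3, C4b, Cfb, Hc, C3ar1 and C5ar1. They were found by gene symbol in the platform's probe annotation, and 8 of the 9 had a probe there, 1 probe each, among 13697 genes in all. C3, the central component on which the pathways converge, is not analysed here. RNA of each of 3 genotypes was read on 1 CodeLink array, a glass slide of oligonucleotide probes read in a single colour. The first genotype was double deficient in DNase II and in IFN-IR, the type I interferon receptor, with both given as -/- in the labels. The second was DNase II-deficient, and the third was wild-type. The strain, the number of embryos per array and the form of the deficient alleles were not stated in the labels. Because each genotype has 1 array, no difference has a replicate check, and none carries a test or a p-value.

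Complement is a cascade of plasma proteins that marks particles for uptake, calls in leukocytes and lyses membranes. The classical pathway starts when C1q, built from the chains of C1qa, C1qb and C1qc, binds its target and its proteases cleave C4 and C2, whereas factor B (Cfb) serves the alternative pathway. Hepatocytes secrete most plasma complement, among it C2, C3, C4, factor B and C5 (the product of Hc in the mouse), while C1q comes mainly from macrophages. Macrophages also make C2, C4 and factor B, so the division into liver-made and macrophage-made components is one of main source only. C3ar1 and C5ar1 encode the receptors for the fragments C3a and C5a and are found on myeloid cells. DNase II is a nuclease of lysosomes that breaks down the DNA of cells engulfed by macrophages, and in the fetal liver that DNA comes largely from nuclei expelled by red cell precursors.

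Values are normalised intensities on a linear scale, with array medians of 0.963 in the double-deficient array, 0.959 in the DNase II-deficient array and 0.958 in the wild-type array. A gene was compared if either array of the pair showed it above that array's median, and it was counted as different at 2-fold or more. Levels of different probes are not set against each other, since probes differ in binding. The sums over marker lists given below do add different probes. Bright probes weigh most in such a sum, and it is not a measure of cell content. The Dnase2a probe, for the targeted nuclease, read 39.7 in the double-deficient array, 48.6 in the DNase II-deficient array and 40.4 in the wild-type array. Ifnar1 and Ifnar2, the chains of the receptor, read 3.17 and 0.483 in the double-deficient array, 4.66 and 0.485 in the DNase II-deficient array and 3.60 and 0.574 in the wild-type array. No probe showed a loss of 2-fold, and where the probes lie relative to the altered parts of these genes is not known here, so the genotypes rest on the labels. Hepatocyte genes were bright in all 3 arrays, among them Afp (568 double-deficient, 885 DNase II-deficient and 582.5 wild-type) and Apoa1 (434, 439 and 577.0 in the same order). Over all genes compared, the median log2 difference was -0.21 for DNase II-deficient minus wild-type, 0.11 between the mutants, double-deficient minus DNase II-deficient, and -0.08 in double-deficient minus wild-type. Cyclic loess scaling brought the first of these to 0.01.

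In the DNase II-deficient array, 3 members were at least 2-fold higher than in wild-type: C3ar1, C4b and C2. The other 5 of the 8 compared differed by less than 2-fold, and none was 2-fold lower. Of all 8383 genes compared, 7.67% lay 2-fold or more above wild-type and 6.17% as far below it. The median log2 difference of the 8 members was 0.63, beside -0.21 over all genes. The members that were higher came from different classes, 2 of the 4 measured liver-made components and 1 of the 2 receptors, whereas neither macrophage-made chain of C1q passed 2-fold.

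**Figure D1:**
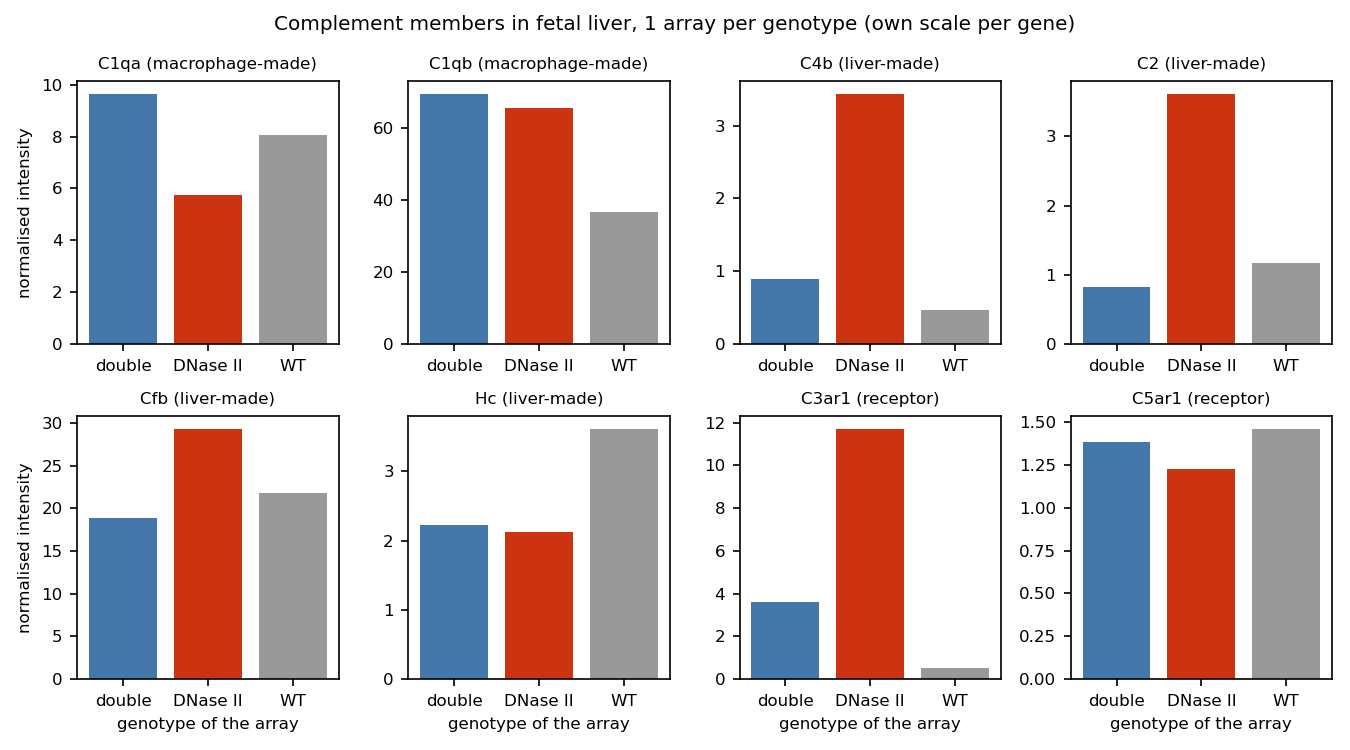
Normalised intensity of each complement member (y axis, from 0, own scale per gene) in the double-deficient, DNase II-deficient and wild-type arrays (x axis, 1 bar per array, no error bars because there is 1 array per genotype). The bars of C4b, C2, C3ar1 and Cfb are highest in the DNase II-deficient array, that of Cfb by less than 2-fold. C1qb is high in both mutant arrays, and Hc is low in both.

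Among the macrophage-made components, the chains of C1q gave different orders of the arrays. C1qb, the B chain, read 69.4 in the double-deficient array, 65.4 in the DNase II-deficient array and 36.8 in the wild-type array. It was high in both mutants, 1.89-fold above wild-type in the double-deficient array and 1.78-fold in the DNase II-deficient array. These log2 differences were 0.92 and 0.83, and quantile scaling put both just past 2-fold, at 1.04 and 1.10, as did cyclic loess scaling, at 1.03 and 1.14. The 2 mutant arrays differed in C1qb by 0.08 on the log2 scale, double-deficient minus DNase II-deficient, and the sign of that value turned under quantile and loess scaling. As a yardstick, the log2 difference was compared with its spread over the 500 compared genes nearest in level, their median absolute deviation scaled to match an SD. This is a spread between genes of these arrays and not between replicates. For C1qb it was 0.24 for double-deficient minus wild-type and 0.40 for DNase II-deficient minus wild-type, less than either difference.

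C1qa, the A chain, read 9.64 in the double-deficient array, 5.73 in the DNase II-deficient array and 8.06 in the wild-type array. Its lowest value was that of the DNase II-deficient array. The log2 difference was -0.49 for DNase II-deficient minus wild-type, about the size of the spread of 0.50, and 0.26 for double-deficient minus wild-type, against a spread of 0.28. Between the mutants it was 0.75, with a spread of 0.42. C1qc, the C chain, is on the wider list of complement genes used below and read 18.2, 18.0 and 14.0 in the double-deficient, DNase II-deficient and wild-type arrays, with log2 differences from wild-type of 0.38 and 0.36 and spreads of 0.24 and 0.42. The 3 C1q genes are adjacent on chromosome 4, with C1qc between the others. Against wild-type as deposited, C1qb differed by more than its spread in both mutant arrays and C1qc in the double-deficient array. C1qa differed by less than its spread in both. Relative to the median of all genes, the C1qa difference from wild-type was 0.33 in the double-deficient array and -0.29 in the DNase II-deficient array. For C1qc these values were 0.45 and 0.57. The double-deficient C1qa and the DNase II-deficient C1qc values then passed their spreads, so the order of C1qa against wild-type was not settled.

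The RefSeq promoter table (build GRCm38.p6, 250 bases before to 50 after the start of a gene) held 4 of the 8 measured members: C1qb, Hc, C3ar1 and C5ar1. The windows of C1qb, high in both mutants, and of C3ar1, the member with the largest difference, are shown because they belong to a macrophage-made component and a receptor that were above wild-type in both mutants to unequal degrees. They lie at chr4:136886151-136886450 and chr6:122856108-122856407, both on the minus strand, and are written 5′ to 3′ with a match to the AP-1 motif in capitals.
C1qb: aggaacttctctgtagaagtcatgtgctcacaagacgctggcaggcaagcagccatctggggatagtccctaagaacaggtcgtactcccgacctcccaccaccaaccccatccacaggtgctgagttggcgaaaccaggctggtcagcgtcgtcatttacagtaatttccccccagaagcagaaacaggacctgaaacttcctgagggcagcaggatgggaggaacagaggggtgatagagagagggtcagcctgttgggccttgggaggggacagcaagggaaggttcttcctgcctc
C3ar1: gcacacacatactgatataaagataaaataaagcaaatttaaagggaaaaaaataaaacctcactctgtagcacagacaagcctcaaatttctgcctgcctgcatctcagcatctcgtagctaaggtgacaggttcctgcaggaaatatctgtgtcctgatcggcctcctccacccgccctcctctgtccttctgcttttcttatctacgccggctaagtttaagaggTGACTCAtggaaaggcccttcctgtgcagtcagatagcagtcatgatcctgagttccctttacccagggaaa
The core of the interferon-stimulated response element (GAAA, any 2 bases, GAAA) and the STAT-binding GAS motif (TTC, any 3 bases, GAA), searched on both strands, had 0 matches in the 4 windows. They occur in 3.44% and 8.30% of all 32851 windows of this length. The AP-1 motif TGANTCA was added after the C3ar1 window had been read. It starts 22 bases before the start of C3ar1, as TGACTCA, and occurs in 7.81% of all windows. A match is a run of letters and not a shown binding site, and enhancers outside these 300 bases were not searched.

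The liver-made components did not move as one. C4b, the C4 gene whose product is cleaved into the covalent tag C4b and the fragment C4a, read 0.894 in the double-deficient array, 3.43 in the DNase II-deficient array and 0.474 in the wild-type array. The DNase II-deficient value was 7.24-fold above wild-type, a log2 difference of 2.86 with a like-level spread of 0.54, or 3.06 relative to the median of all genes. The double-deficient array was 3.84-fold lower than the DNase II-deficient array. Both the double-deficient and the wild-type values lay below their array medians, so that pair was not compared, and its log2 difference of 0.91 rests on dim spots. With the floor set at the array median, the log2 difference of DNase II-deficient minus wild-type was a lower bound of 1.84. Whether this probe also reads C4a, a near-identical copy that lies close to C4b on chromosome 17, is not known, so a part of its signal may be that of C4a.

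C2, the protease part of the classical convertase, read 0.831 in the double-deficient array, 3.61 in the DNase II-deficient array and 1.18 in the wild-type array. It was 3.07-fold higher in the DNase II-deficient array than in wild-type and 4.34-fold lower in the double-deficient array than in the DNase II-deficient array. The first log2 difference was 1.62 with a spread of 0.46, or 1.82 relative to all genes, and the second was -2.12 with a spread of 0.39. The double-deficient array lay below wild-type as well, by -0.50 with a spread of 0.29. The double-deficient spot lay below its array median, however. With the floor set at the array median, double-deficient minus wild-type was -0.29, about the spread, and double-deficient minus DNase II-deficient was -1.90. C2 was thus high in the DNase II-deficient array alone.

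Cfb, the alternative pathway counterpart of C2 and its direct neighbour on chromosome 17, read 18.9 in the double-deficient array, 29.3 in the DNase II-deficient array and 21.8 in the wild-type array. The order of the arrays was that of C2, but the differences stayed under 2-fold. DNase II-deficient minus wild-type was 0.42 on the log2 scale, no more than the spread of 0.43 as deposited. Relative to the median of all genes it was 0.63, and quantile and loess scaling put it at 0.67 and 0.71, all past that spread. Double-deficient minus DNase II-deficient was -0.63 with a spread of 0.37. Double-deficient minus wild-type was -0.21 with a spread of 0.25.

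Hc encodes C5, the component that starts the membrane attack complex and yields the attractant C5a. It read 2.22 in the double-deficient array, 2.13 in the DNase II-deficient array and 3.61 in the wild-type array. Of the 4 measured liver-made members, Hc alone was below wild-type in both mutant arrays, at log2 differences of -0.70 and -0.76 with spreads of 0.27 and 0.54. The mutants differed in Hc by 0.06, a value whose sign turned under 75th percentile and loess scaling. Relative to the median of all genes the differences from wild-type were -0.62 and -0.56.

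The receptors split. C3ar1, the C3a receptor, read 3.60 in the double-deficient array, 11.7 in the DNase II-deficient array and 0.540 in the wild-type array. It was 21.7-fold higher in the DNase II-deficient array and 6.66-fold higher in the double-deficient array than in wild-type, and 3.26-fold lower in the double-deficient than in the DNase II-deficient array. The 3 arrays were thus well apart, with log2 differences of 4.44, 2.74 and -1.70 and spreads of 0.52, 0.28 and 0.40. The wild-type spot was dim, and raising the floor to the array median turned the differences from wild-type into lower bounds of 3.61 and 1.91. C5ar1, the C5a receptor, read 1.38 in the double-deficient array, 1.23 in the DNase II-deficient array and 1.46 in the wild-type array. Its log2 differences from wild-type were -0.08 and -0.25, each below its spread of 0.32 and 0.53, so the arrays could not be ordered for it.

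**Figure D2:**
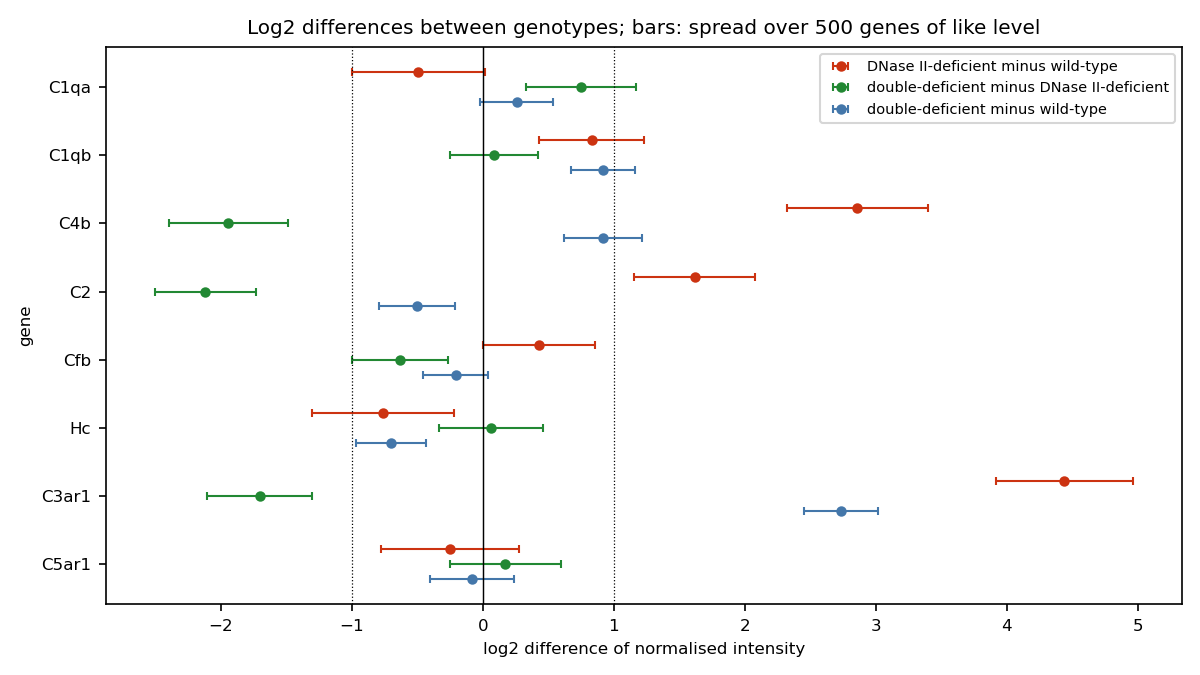
Log2 difference of normalised intensity (x axis) for each member (y axis) in the 3 comparisons, 1 point per comparison, with bars for the spread of that difference over the 500 compared genes nearest in level and dotted lines at 2-fold. C3ar1, C4b and C2 lie past 2-fold in DNase II-deficient minus wild-type and, on the other side, in double-deficient minus DNase II-deficient, while C5ar1 lies within its bars.

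In the comparison of the double-deficient with the DNase II-deficient array, which differ in the interferon receptor, 3 of 8 members were 2-fold or more lower and none was higher by that much. Over all 8303 genes compared these shares were 4.85% and 3.11%. The 3 were again C2, C4b and C3ar1, a count that shares the DNase II-deficient array with the comparison above. The median log2 difference over all 8 members was -0.29, beside 0.11 over all genes. Double-deficient minus wild-type compared 7 members, of which C3ar1 alone was at least 2-fold higher and none 2-fold lower, against 2.05% and 0.735% of 8158 genes. The member median was -0.08, as over all genes.

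Markers of the cells that could carry these transcripts were read on the same arrays. Hepatocyte markers, of which 13 of 16 were measured, summed to 3426 in the double-deficient array, 3868 in the DNase II-deficient array and 3824 in the wild-type array. In DNase II-deficient minus wild-type, 1 of 12 compared, Serpina1a, was 2-fold lower, beside 6.17% of all genes. Only Tdo2 lay below the floor, the 25th percentile, in all 3 arrays. Macrophage markers, 12 of 16 measured, summed to 106 in the double-deficient array, 130 in the DNase II-deficient array and 131 in the wild-type array. None of them lay below the floor in all arrays, and Adgre1, a surface marker of mouse macrophages, was dim at 0.271, 0.282 and 0.269. Of 10 compared in DNase II-deficient minus wild-type, 3 were 2-fold higher (Lyz2, Fcgr1 and Aif1) and 3 were 2-fold lower (Marco, Cd5l and Clec4f). The shares over all genes were 7.67% and 6.17%.

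Granulocyte and monocyte markers summed to 617 in the double-deficient array, 769 in the DNase II-deficient array and 270 in the wild-type array, with none below the floor in all arrays. All 8 compared were at least 2-fold higher in DNase II-deficient minus wild-type, and 6 of 8 in double-deficient minus wild-type, beside 7.67% and 2.05% of all genes. They included S100a9, at 271, 330 and 124, and S100a8, at 164, 194 and 68.4. Acute phase genes of the liver summed to 195 in the double-deficient array, 311 in the DNase II-deficient array and 111 in the wild-type array, with Saa1 and Orm2 below the floor in all 3. Hamp read 13.7, 118 and 5.43, so it weighed heavily in these sums. Of 8 compared in DNase II-deficient minus wild-type, 4 were at least 2-fold higher (Saa3, Hp, Serpina3n and Hamp), beside 7.67% of all genes. Between the mutants, 2 of 8 were 2-fold lower (Serpina3n and Hamp), beside 4.85%, and the list median was 0.03. In double-deficient minus wild-type, 3 of 7 were 2-fold higher (Saa3, Hp and Hamp), beside 2.05%. The list also held Hpx, the heme-binding protein hemopexin, at 93.9, 105 and 67.3, and Hp, the hemoglobin-binding haptoglobin, at 32.2, 41.7 and 10.1. Interferon-stimulated genes summed to 21.5, 408 and 12.0, and all 11 measured were at least 2-fold higher in DNase II-deficient minus wild-type, beside 7.67% of all genes. In double-deficient minus DNase II-deficient, 10 of 11 were 2-fold or more lower, beside 4.85% of all genes. Of 5 compared in double-deficient minus wild-type, 3 were still at least 2-fold higher (Irf1, Ifit1 and Oasl1), beside 2.05% of all genes. Ifit1 and Oasl1 lay below the array median in wild-type. Irf7, a driver of interferon production, stood at 2.68 in the double-deficient array, 193 in the DNase II-deficient array and 3.75 in the wild-type array. In the same order, Irf1 stood at 10.3, 16.4 and 3.40, and Usp18, a brake on the receptor, at 2.09, 55.3 and 1.98. In a whole organ, more cells of a type and more RNA per cell cannot be told apart, and the part of these shifts in the complement differences was not tested.

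**Figure D3:**
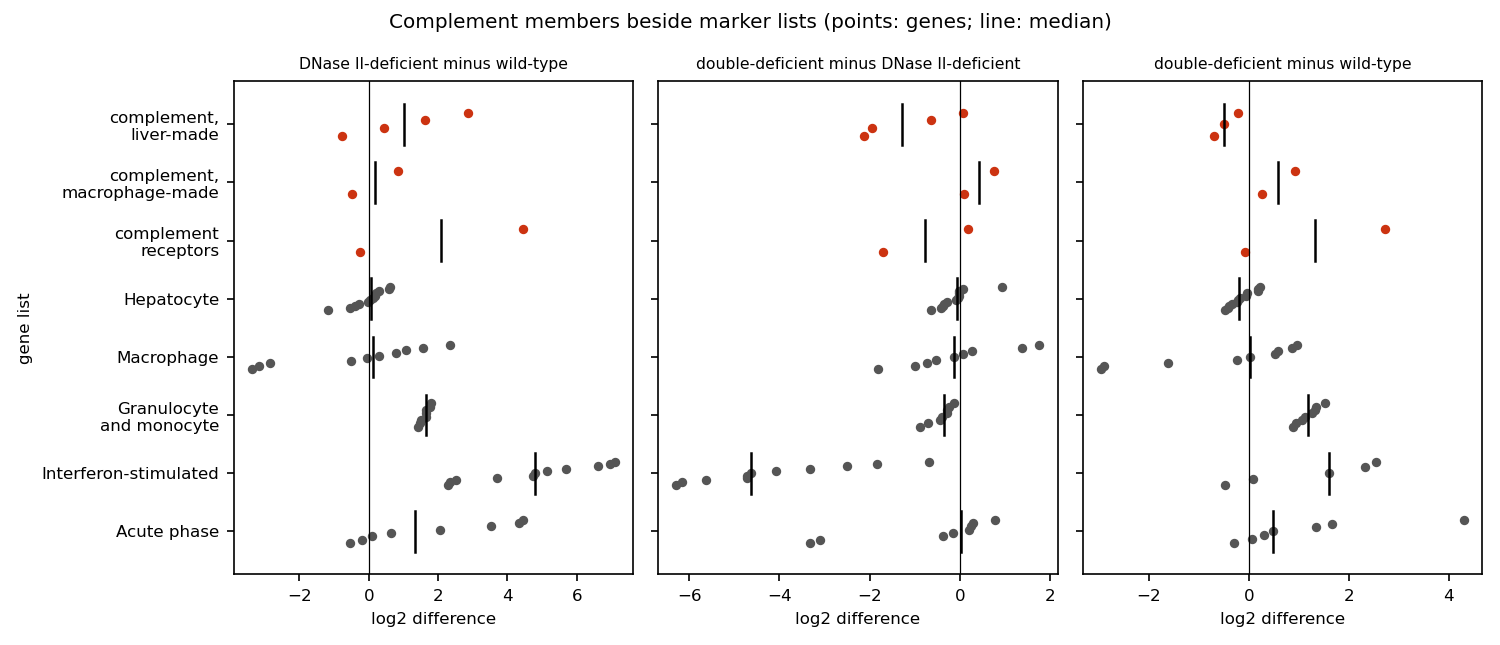
Log2 differences (x axis) of the compared complement members, by class, and of the marker lists (y axis), in the 3 comparisons (panels, each with its own scale), with 1 point per gene and a line at the list's median. The hepatocyte points gather near 0, apart from Serpina1a, the granulocyte and monocyte points lie above 0 in both comparisons with wild-type, and each complement class holds points on both sides of 0 in DNase II-deficient minus wild-type.

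Other genes of the system were taken from a list of 46, of which 32 had a probe and 26 could be compared in DNase II-deficient minus wild-type. There, 5 were higher and 3 lower by 2-fold or more, beside 7.67% and 6.17% of all genes, and the median was -0.38, beside -0.21. In double-deficient minus DNase II-deficient, 4 of 27 were higher and 2 lower, beside 3.11% and 4.85% of all genes, with a median of 0.08, beside 0.11. In double-deficient minus wild-type, 1 of 26 was higher and 1 lower, beside 2.05% and 0.735%, with a median of -0.15, beside -0.08.

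Of the proteases of the C1 complex and their inhibitor, C1ra and Serping1 were at least 2-fold higher in the DNase II-deficient array and none of the 3 was so in the double-deficient array, both against wild-type. C1ra, the protease C1r, read 20.0 in the double-deficient array, 38.0 in the DNase II-deficient array and 11.2 in the wild-type array, 3.39-fold higher in DNase II-deficient minus wild-type. Serping1, the inhibitor of C1r and C1s, read 14.8, 25.5 and 10.6 in the same order and was 2.41-fold higher. C1s1, the protease C1s, read 20.6, 30.6 and 18.2 on its brighter probe, 1.68-fold higher, and its other probe read 4.56, 8.59 and 4.31. For all 3 genes the double-deficient value lay between those of the other arrays. For C1s1, however, the log2 difference of double-deficient minus wild-type was 0.18 on the brighter probe and 0.08 on the other. Both were below the spread of 0.25 as deposited.

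The lectin pathway held the gene of this list that lay farthest below wild-type. Fcna, a ficolin of macrophages, read 7.23 in the double-deficient array, 2.43 in the DNase II-deficient array and 21.7 in the wild-type array, so it was 8.94-fold lower in the DNase II-deficient array than in wild-type, and its log2 difference for double-deficient minus wild-type was -1.59. Masp2, the lectin pathway protease, read 2.59, 1.87 and 4.84 and was 2.59-fold lower in DNase II-deficient minus wild-type. The 2 Masp1 probes did not go together, with log2 differences of -0.61 and 0.57 in that comparison.

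Of the terminal components beside Hc, 3 were compared and 1, C8b, passed 2-fold. C8b, the beta chain of C8, read 18.5 in the double-deficient array, 8.55 in the DNase II-deficient array and 25.3 in the wild-type array. It was 2.96-fold lower in DNase II-deficient minus wild-type and 2.17-fold higher in double-deficient minus DNase II-deficient, where loess scaling left it under 2-fold. C8g, the gamma chain, read 8.71, 8.60 and 14.1, with log2 differences from wild-type of -0.70 and -0.72 and spreads of 0.26 and 0.44. C8a, the alpha chain, read 1.43, 0.904 and 1.57, with differences of -0.14 and -0.80 and spreads of 0.31 and 0.53, so in the double-deficient array it could not be told from wild-type. C9 and C6 were dim and not compared.

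Regulators and receptors varied. Clu, the chaperone clusterin that blocks membrane attack, read 24.6 in the double-deficient array, 23.2 in the DNase II-deficient array and 11.8 in the wild-type array, and at 2.09-fold it was the only wider-list gene past 2-fold upward in double-deficient minus wild-type. C4bp, which binds C4b, read 1.27, 0.629 and 1.12, so it was 2.01-fold higher in double-deficient minus DNase II-deficient, a value that 75th percentile and loess scaling put under the threshold. Its DNase II-deficient spot lay below the array median. Raising the floor to that median left a lower bound of 0.40 on the log2 scale, so the 2-fold call was lost. Cfi, the protease that degrades C3b and C4b, read 24.4, 25.4 and 35.1, and Vtn, vitronectin, 36.6, 42.1 and 66.5. Itgam and Itgb2, the chains of complement receptor CR3, were 4.54-fold and 2.60-fold higher in DNase II-deficient minus wild-type, at 0.476, 1.35 and 0.296 and at 3.95, 6.51 and 2.50. The Itgam spot was dim in wild-type and in the double-deficient array, and raising the floor to the array median left a lower bound of 0.49 on the log2 scale, against 2.18 as deposited, so that its 2-fold call was lost. Cd93, once taken for a C1q receptor and common on endothelium and myeloid cells, read 5.76, 20.7 and 4.41, 4.70-fold higher. Cr2, the C3d receptor of B cells, read 1.29, 0.646 and 0.861, just past the 2-fold threshold in double-deficient minus DNase II-deficient as deposited and under it with quantile, 75th percentile or loess scaling. Its DNase II-deficient and wild-type spots lay below their array medians, and the raised floor left a lower bound of 0.43 between the mutants. C1qbp, a mitochondrial protein that binds C1q, read 37.1, 34.5 and 41.4.

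**Figure D4:**
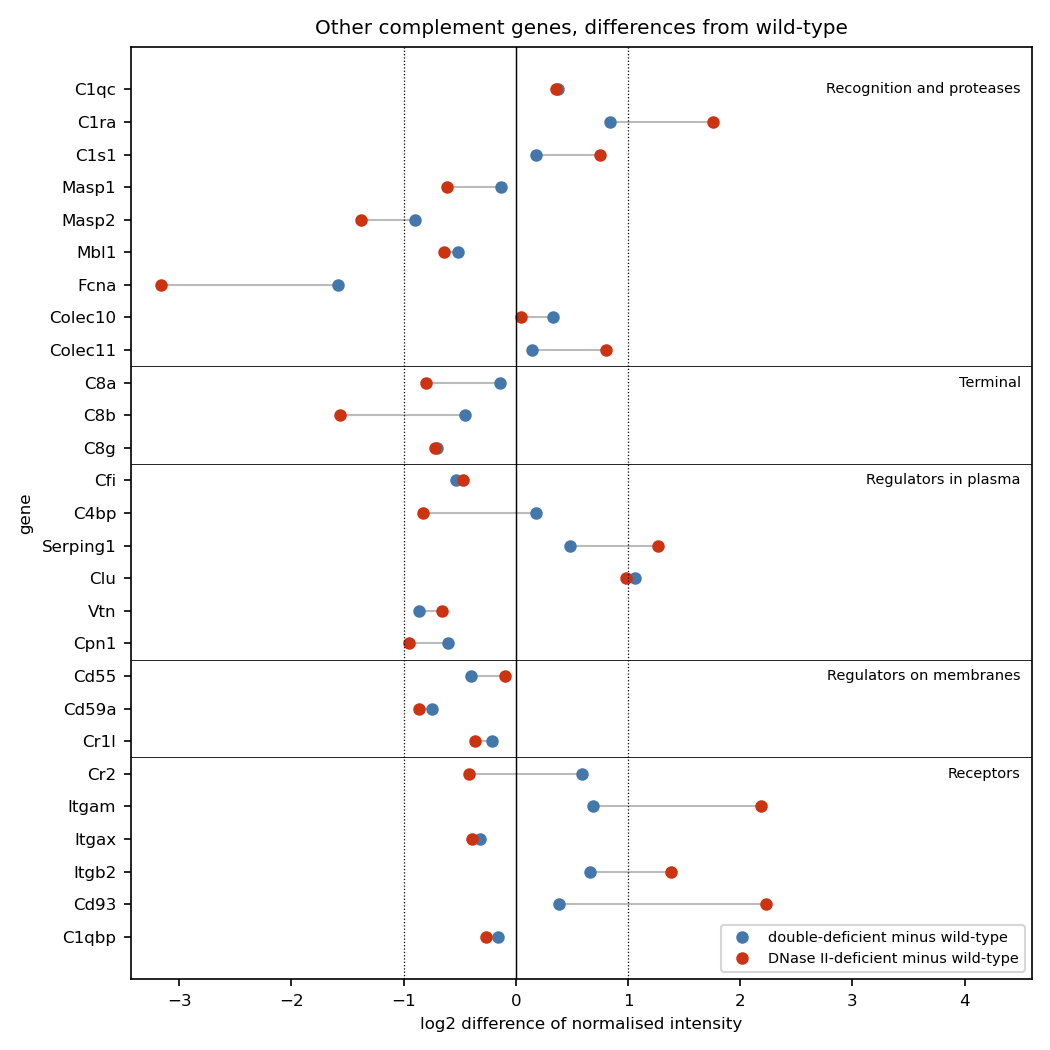
Log2 difference from wild-type (x axis) of each wider-list gene above an array median (y axis, grouped by role), with blue points for double-deficient and red points for DNase II-deficient, 1 array per genotype, and dotted lines at 2-fold. C1ra, Serping1, Itgam, Itgb2 and Cd93 lie beyond 2-fold on the right and Fcna, Masp2 and C8b on the left in red, and most blue points lie nearer to 0.

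The genes nearest to each 2-fold different member were taken from 8182 genes by the distance between their pairs of log2 differences from wild-type over the 3 arrays. For C2 these were Fbp1, Akap2 and Cd300ld, at distances of 0.08, 0.12 and 0.12. For C4b they were Socs1 at 0.03, Pfkp at 0.19 and Psmb9 at 0.20. Socs1, the feedback inhibitor of cytokine receptors, read 0.700 in the double-deficient array, 2.65 in the DNase II-deficient array and 0.373 in the wild-type array. C3ar1 had no gene so near, and the closest were the chemokine gene Ccl2 at 0.63, Gbp2 at 0.74 and Nupr1 at 0.83. Ccl2 read 8.38, 20.5 and 1.43 in the same order of arrays.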

How the data were processed

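The authors deposited normalised intensity values, not logged, that the CodeLink System Software gave from each array's image, per the labels' protocols. How it subtracted background and normalised is not stated there. All arrays share a typical level, so each value is relative to it. The table held 20289 probes, and 125 with a missing value were dropped. Per the platform annotation, 15120 probes had 1 symbol, 38 several and 5131 none, and the last 2 kinds named no gene. Arrays have no depth, and their number limits the precision.

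Each array had a floor at its 25th percentile (0.163 double-deficient, 0.159 DNase II-deficient, 0.162 wild-type), and floored values were logged to base 2 with Python 3.11.15 and pandas 2.3.3. The brightest probe stood for a gene in counts. Alternative scalings used limma 3.58.1. The steps were tested on simulated data. Members and lists were chosen with earlier results of these data known. Named genes were all members, the wider-list genes at least 2-fold different plus the 4 brightest others, the 2 brightest markers per list by mean log2 level and those below the floor, and the 3 genes most like each member at least 2-fold different. Colec11, C8a, C8g, C6, C9, C1qc, Masp1, the markers Adgre1, Serpina1a, Lyz2, Fcgr1, Aif1, Marco, Cd5l, Clec4f, Irf1, Ifit1, Oasl1, Usp18, Hamp, Saa3 and Serpina3n, and the genes between Cfb and C4b were named after their values were seen.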

Additional observations from a re-analysis of the deposited data

How the results depend on the processing

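Of 96 member values recomputed under 4 alternatives (3 scalings and a floor at the array median), none that was 2-fold different changed sign, and 4 moved by more than the like-level spread. The other 3 (the 10th percentile floor, no level filter, mean of all probes) could not change a member value, since each member has 1 probe above the floor in every array. All 4 came from the raised floor: C4b at 1.84 and C3ar1 at 3.61 in DNase II-deficient minus wild-type, and 0.01 and 1.91 in double-deficient minus wild-type. The number of members past 2-fold upward in double-deficient minus wild-type was 2 instead of 1 with quantile and loess scaling and at 1.5-fold, C1qb being the addition. At 1.5-fold, 1 member was lower in DNase II-deficient minus wild-type (Hc), beside 1695 of all 8383 genes. In double-deficient minus wild-type 1 was lower (Hc), beside 396 of 8158 genes. In double-deficient minus DNase II-deficient 1 was higher (C1qa), beside 1038 of 8303 genes. At 4-fold, 1 was lower in the last comparison (C2), beside 112 genes. With so few members, a count of 1 at 1.5-fold does not set them apart from all genes. For the wider list, DNase II-deficient minus wild-type gave 8 higher genes instead of 5 after loess, 6 with quantile and 75th percentile scaling (Clu added), 4 with the raised floor (Itgam lost) and 5 lower instead of 3 without the level filter. In double-deficient minus DNase II-deficient, the 4 higher became 2 with 75th percentile scaling, 1 with loess and 2 with the raised floor, which also left 1 lower instead of 2, whereas all 3 scalings gave 3 lower (C1ra added). Without the filter 2 were lower in double-deficient minus wild-type instead of 1. Apart from the construction of the filter, thresholds and floor, the cause was not tested. Over all genes, the lower calls of DNase II-deficient minus wild-type numbered 517 as deposited and 296 after loess, and the higher calls 643 and 810, so the higher share depends on scaling. The higher and lower calls of double-deficient minus DNase II-deficient were 258 and 403 as deposited, and 170 and 515 after loess. No paired analysis was possible because each genotype has 1 array. Among the members and the wider-list genes named and compared, spots below the array median limit C4b, C3ar1, Itgam and Cr2 in wild-type. They limit C4b, C2 and Itgam in the double-deficient array, and C4bp, Cr2 and C8a in the DNase II-deficient array.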

Other observations

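C2 and Cfb are next to each other on chromosome 17, and 5 protein-coding genes lie between Cfb and C4b in the RefSeq table, all 5 of them measured. None of these differed by 2-fold in any comparison. In DNase II-deficient minus wild-type, where C2 and C4b were 3.07-fold and 7.24-fold higher, the log2 differences were -0.64 for Dxo, -0.67 for Skiv2l, -0.62 for Nelfe and -0.27 for Stk19. Nelfe, a subunit of the negative elongation factor, read 17.7 in the double-deficient array, 12.3 in the DNase II-deficient array and 18.9 in the wild-type array. Skiv2l, an RNA helicase of the exosome pathway, read 5.52, 4.54 and 7.23 in the same order. Cyp21a1, the steroid 21-hydroxylase gene next to C4b, lay below the floor in all 3 arrays. The higher values in this stretch were thus those of the C2 and C4b probes, and not of the measured genes between Cfb and C4b. C4a also lies in this stretch and had no probe under its symbol.

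Colec11, a lectin pathway collectin, read 3.81 in the double-deficient array, 6.01 in the DNase II-deficient array and 3.45 in the wild-type array, a log2 difference of 0.80 for DNase II-deficient minus wild-type that loess scaling put at the 2-fold threshold.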
